A study of Mus musculus with 4 samples.

Results

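The transcripts of 8 mouse snoRNA host genes, Gas5, Snhg1, Snhg3, Snhg5, Snhg6, Snhg8, Snhg11 and Snhg12, were examined for recovery with a FLAG-tagged mutant of the exoribonuclease Dis3l2. The members were every row that carried one of these 8 symbols, which gave 63 transcripts among 22781: 55 Ensembl transcripts of 6311 in a noncoding table and 8 RefSeq transcripts of 16470 in an mRNA table. Snhg11 had a row in the mRNA table alone, and the other hosts had rows in both tables. The series holds 4 libraries from feeder-free C57BL/6 embryonic stem cells at passages 25 to 30, kept with LIF and serum, and asks which RNAs the mutant protein binds. The mutant IP is RNA recovered on anti-FLAG M2 gel from cells transfected with FLAG-tagged mutant Dis3l2, and the mock IP is RNA recovered on the same gel from mock-transfected cells. The mutant input and the mock input are RiboMinus-selected RNA, depleted of ribosomal RNA, from cells treated in these 2 ways. No source used here names the mutation, the promoter of the construct or the share of cells that took it up. Each group is 1 library, so no difference below has a replicate check and no p-value is given.

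A snoRNA host gene carries small nucleolar RNAs in its introns. After splicing, the excised intron is trimmed to the mature snoRNA, which guides modification or cleavage of ribosomal RNA in the nucleolus, while the joined exons form a separate RNA that in many hosts is exported, loaded by ribosomes and removed by nonsense-mediated decay. C/D box snoRNAs guide 2′-O-methylation and H/ACA box snoRNAs guide pseudouridylation. Gas5 was found as a transcript that accumulates in growth-arrested cells and carries a series of C/D box snoRNAs. Snhg1 is the host of Snord22 (U22), which is needed for processing of 18S ribosomal RNA, and of several shorter C/D box snoRNAs. Snhg3 is the host of the H/ACA box RNAs Snora73a and Snora73b (U17), also needed for 18S processing. Snhg5 is the host of the U50 C/D box snoRNAs, Snhg6 of Snord87, Snhg8 of Snora24, and Snhg12 of Snora16a, Snora44, Snora61 and Snord99. Snhg11 is a host gene best known from neural tissue.

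Many host genes start transcription at a C within a run of pyrimidines, as ribosomal protein genes do. The start regions of the hosts are shown because this feature is shared by part of the set and was not used to choose it. RefSeq promoter sequences on build GRCm38.p6 covered 7 of the 8 hosts with 8 starts, 2 of them for Gas5, and Snhg6 was not matched. Each window below has 60 bases of the transcribed strand, from 35 before to 25 after the annotated start. Capitals mark a C followed by C or T only, at least 6 bases in all and beginning between 10 bases before and 15 bases after the start, or the letters TATAA between 40 and 16 bases before it.
Gas5, chr1:161035131-161035190, plus strand: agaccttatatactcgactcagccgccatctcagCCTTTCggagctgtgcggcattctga
Snhg12, chr4:132308643-132308702, plus strand: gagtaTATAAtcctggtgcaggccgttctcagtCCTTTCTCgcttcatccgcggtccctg
Snhg8, chr3:123508312-123508371, minus strand: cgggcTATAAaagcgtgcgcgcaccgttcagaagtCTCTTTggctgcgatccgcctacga
Snhg5, chr9:88522873-88522932, minus strand: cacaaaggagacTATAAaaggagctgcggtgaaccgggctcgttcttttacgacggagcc
Snhg1, chr19:8723452-8723511, plus strand: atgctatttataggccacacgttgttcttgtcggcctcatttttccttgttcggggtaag
Snhg3, chr4:132353662-132353721, minus strand: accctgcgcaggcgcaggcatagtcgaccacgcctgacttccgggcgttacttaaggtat

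The pyrimidine run was found in 3 of the 8 windows (37.5%), those of Gas5, Snhg8 and Snhg12, against 22.6% of 32851 RefSeq promoters. TATAA was found in the windows of Snhg5, Snhg8 and Snhg12 (37.5%), against 3.52% of all promoters. The windows of Snhg1, Snhg3 and Snhg11 and the other Gas5 start held neither as spelled here. These matches describe letters in a window and show no use of the site.

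The noncoding table held 3183346 reads in the mutant IP, 2157604 in the mock IP, 2746737 in the mutant input and 2738512 in the mock input. The mRNA table was shallower in the inputs, with 2275647, 1860030, 307324 and 291175 reads in the same order. Values were deposited as reads divided by one factor per library and not by length, so levels of different hosts are not compared. Dis3l2 had 127 reads in the mutant IP against 21 in the mock IP, and the ratio of deposited values was 5.60 (3.51 to 9.36). All 12 embryonic stem cell markers had a row, with 3803 summed reads in the mutant IP, 2519 in the mock IP, 141 in the mutant input and 176 in the mock input. Markers of fibroblasts (4 of 6 with a row) summed to 108, 52, 19 and 10 reads in that order, and those of endoderm, mesoderm and neural ectoderm to at most 98 in any library. Ratios below are of deposited values, and ranges in brackets after them are exact 95% intervals of the reads, which cover counting error only and compare 2 libraries, not 2 conditions. A transcript counts as higher or lower where log2(value + 1) differs by at least 4-fold, or by 2-fold between the inputs, among transcripts with a value of at least 1 in a library of that ratio.

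Reads of the host genes were not spread evenly over their transcripts. Of the 55 transcripts in the noncoding table, 5 had at least 100 reads over both inputs: 1 of Snhg3, 3 of Snhg12 and 1 of Snhg8. These input-rich transcripts held 97.8% of all host reads in the mutant input (2980 of 3047, exact binomial interval 97.2 to 98.3) and 97.1% in the mock input (2538 of 2615, 96.3 to 97.7). In the IPs, which the choice did not use, they held 20.8% in the mutant (55 of 265, 16 to 26.1) and 21.8% in the mock (37 of 170, 15.8 to 28.7). The other 50 transcripts, 47 of them with reads, held the remaining reads, 210 in the mutant IP, 133 in the mock IP, 67 in the mutant input and 77 in the mock input. The limit of 100 reads was set after the values were seen. A high share in the inputs follows from a choice by input reads, and that choice also favours a lower share in the IPs. The same shares over all noncoding transcripts were not computed, so the contrast is not read as a trait of the hosts. Just inside it in the noncoding table lay Snhg8 ENSMUST00000198509.1 with 245 input reads, and just outside it Snhg1 ENSMUST00000205539.1 with 43. Of the 8 transcripts in the mRNA table, 2 passed the same limit, Snhg8 NR_028574 and Snhg11 NM_175692. For the mutant IP their share of that table's host reads was 86.3% (377 of 437), with 370 reads from Snhg11. For the mock IP it was 81.25% (195 of 240), with 192 from Snhg11. Over both tables, input-rich transcripts held 61.5% (432 of 702) and 56.6% (232 of 410) of host reads in these libraries. As a class, input-rich transcripts thus had a low share in the IPs in the noncoding table only. In the mRNA table the high share was that of Snhg11. Snhg8 NR_028574 held 7 of 437 reads in the mutant IP and 3 of 240 in the mock IP, beside 240 of 340 in the mutant input and 243 of 294 in the mock input.

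**Figure D1:**
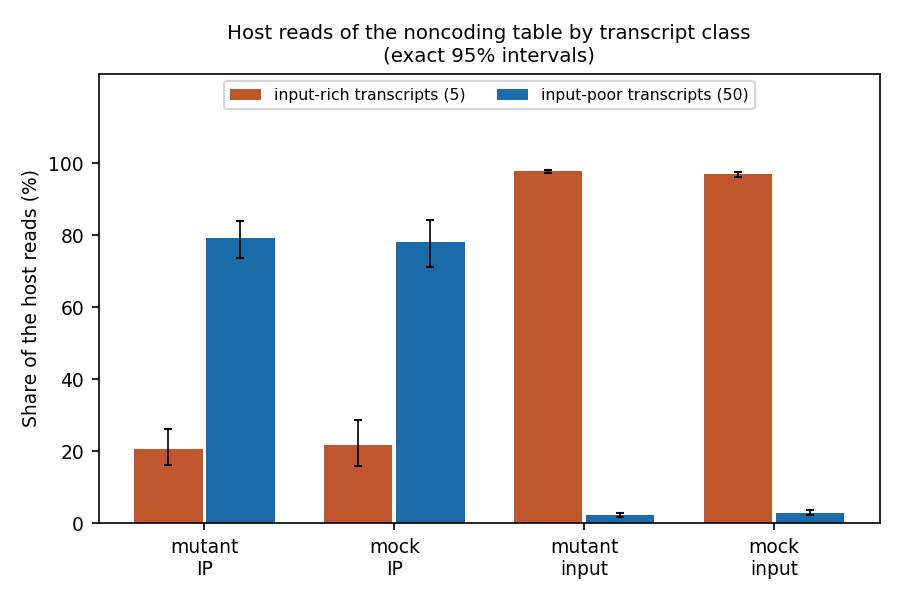
Share of all host reads of the noncoding table (y axis, %) held by the 5 input-rich and the 50 input-poor transcripts in each library, with exact 95% binomial intervals as error bars. Input-rich transcripts held 20.8% of the reads in the mutant IP, 21.8% in the mock IP, 97.8% in the mutant input and 97.1% in the mock input, where the class itself was defined.

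Snhg3 ENSMUST00000141090.7 was the most read host transcript of the inputs. It had 21 reads in the mutant IP, 16 in the mock IP, 1876 in the mutant input and 1284 in the mock input. Its level was therefore 134-fold lower in the mutant IP than in its input (87.4 to 217) and 80.2-fold lower in the mock IP than in its input (49.2 to 141). The RefSeq transcript of the same gene, NR_003270, had 20 reads in the mutant IP but 0 in each of the mock IP, the mutant input and the mock input. The other 4 Ensembl transcripts of Snhg3 had 2 to 6 reads each in the mutant IP, 12 in all, and 0 in every other library. Rows under 1 symbol thus showed opposite orders of IP and input in mutant cells.

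Snhg12 showed the same division. Its transcript ENSMUST00000128131.1 had 8 reads in the mutant IP, 3 in the mock IP, 689 in the mutant input and 783 in the mock input, and lay 129-fold (65.2 to 300) and 261-fold below input in the mutant and the mock. ENSMUST00000182826.1 had 13, 8, 158 and 175 reads in the same order and lay 18.2-fold (10.4 to 35) and 21.9-fold (10.9 to 51.5) below input. ENSMUST00000126380.2 had 7, 10, 135 and 173 reads and lay 28.9-fold and 17.3-fold below. By contrast ENSMUST00000144705.7 had 19 reads in the mutant IP, 21 in the mock IP and 0 in both inputs, at least 4.22-fold and at least 7-fold above input against a floor of 3 reads per library. The RefSeq row NR_029468 had 23 reads in the mutant IP, 12 in the mock IP, 2 in the mutant input and 0 in the mock input. Its ratio of IP to input was 7.67 in the mutant (1.89 to 67.1) and at least 4 in the mock. The 3 other Ensembl transcripts of Snhg12 had at most 6 reads in any library.

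Snhg8 was read almost only in the inputs. Its RefSeq row NR_028574 had 7 reads in the mutant IP, 3 in the mock IP, 240 in the mutant input and 243 in the mock input. It lay 51.4-fold (24.6 to 129) below input in the mutant and 81-fold (27.4 to 396) below input in the mock. ENSMUST00000198509.1 had 6, 0, 122 and 123 reads in the same order, 30.5-fold below input in the mutant and at least 41-fold below in the mock. Of its other transcripts ENSMUST00000199645.1 had 1, 4, 6 and 2 reads and ENSMUST00000196466.1 had 0, 3, 2 and 1.

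Snhg11 had more reads in the IPs than in the inputs. NM_175692 had 370 reads in the mutant IP, 192 in the mock IP, 96 in the mutant input and 44 in the mock input. The ratio of IP to input was 2.57 in the mutant (2.05 to 3.25) and 4.36 in the mock (3.13 to 6.20). On the log2(value + 1) scale these were 1.35 and 2.06, below the medians of 2.44 and 2.32 over all measured transcripts of the mRNA table, where it is listed. It was the only host with over 100 reads in either IP in a single row, and markers of neural ectoderm, the lineage this gene is known from, summed to 98 reads in the mutant IP, 87 in the mock IP, 19 in the mutant input and 18 in the mock input. Their part in the Snhg11 level was not tested, and in bulk RNA a change in the number of cells that hold a transcript and a change in RNA per cell cannot be told apart.

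Snhg1 lay between these patterns. ENSMUST00000206519.1 had 42 reads in the mutant IP, 25 in the mock IP and 19 in each input, and ENSMUST00000205539.1 had 36, 23, 26 and 17 in the order mutant IP, mock IP, mutant input and mock input. Every one of their 4 ratios of IP to input had an interval that included 1. ENSMUST00000206383.1 had 32 reads in the mutant IP, 2 in the mock IP, 10 in the mutant input and 16 in the mock input, so that the mock IP held the fewest reads. The RefSeq row NR_002896 had 0 reads in the mutant IP, 16 in the mock IP and 0 in both inputs. A further 6 Ensembl transcripts had at most 5 reads in any library.

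Gas5, Snhg5 and Snhg6 were read rarely. Over its 22 Ensembl transcripts, 20 of them with reads, Gas5 summed to 39 reads in the mutant IP, 34 in the mock IP, 2 in the mutant input and 22 in the mock input. The most read, ENSMUST00000161229.7, had 1 read in the mutant IP, 16 in the mock IP, 2 in the mutant input and 1 in the mock input. The RefSeq row NR_002840 had 4, 17, 2 and 7 reads in the same order, also most in the mock IP. In its RefSeq row NR_040721, Snhg5 had 13 reads in the mutant IP but 0 in each of the mock IP, the mutant input and the mock input, and 13, 1, 0 and 0 over 7 Ensembl transcripts. Snhg6 had 3 reads in the mutant IP, all in 1 of its 2 Ensembl transcripts, and 0 in every other library and in its RefSeq row. Reads of 1 molecule may be listed in both tables and in several transcripts of a gene, so rows of a host are not independent observations.

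**Figure D2:**
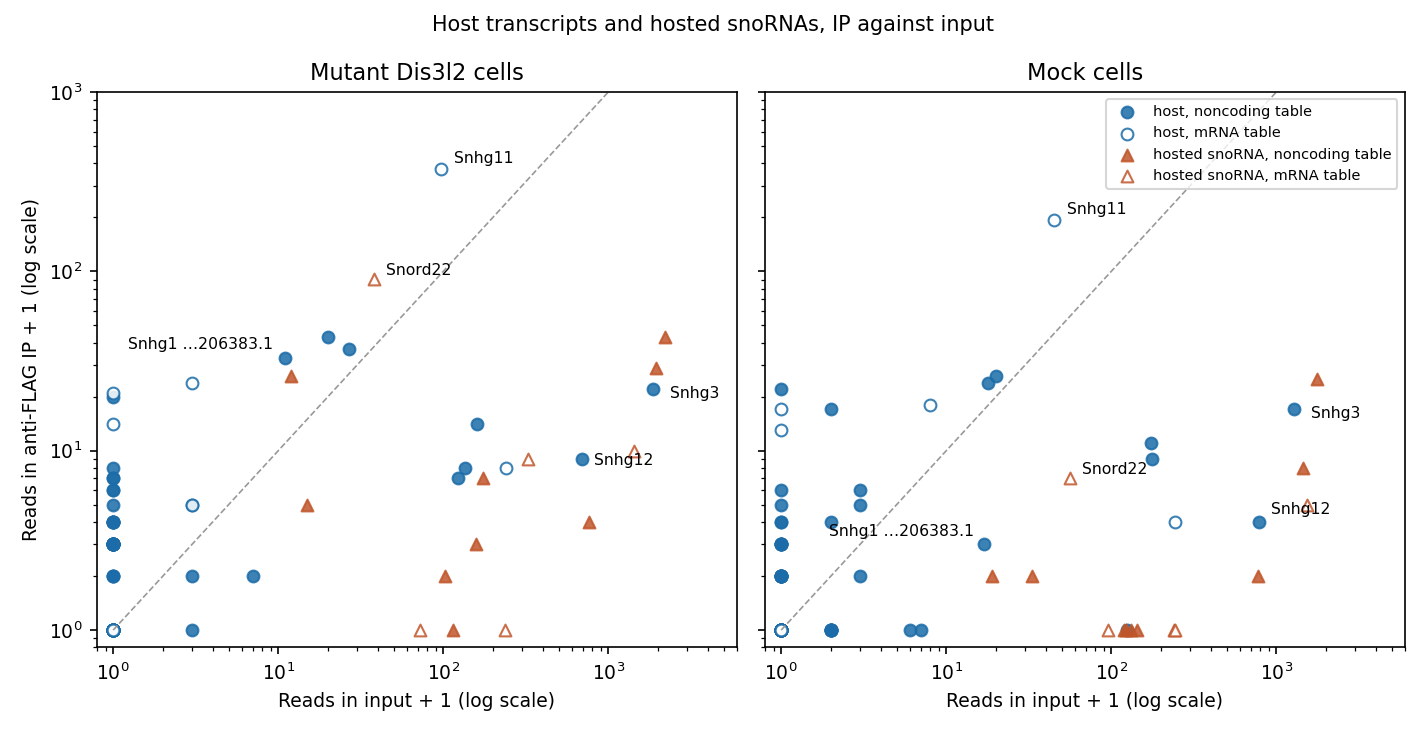
Reads in the anti-FLAG IP (y axis, reads + 1, log scale) against reads in the matching input (x axis, reads + 1, log scale) for each host transcript (circles) and hosted snoRNA row (triangles), mutant cells at left and mock cells at right. The dashed line marks equal reads; the labelled Snhg3 and Snhg12 transcripts (ENSMUST00000141090.7 and ENSMUST00000128131.1) and most snoRNA rows lie far below it in both panels while other rows of these genes lie above it, Snhg11 above it in both, and Snord22 above it with 90 against 37 reads in the mutant and below it with 6 against 55 in the mock.

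The hosted snoRNAs were set beside their hosts. Of 31 snoRNAs paired with these hosts from general knowledge, 7 had a row: Snord22, Snora73a, Snora73b, Snora24, Snora16a, Snora44 and Snora61. A RefSeq gene table placed 28 snoRNA genes inside the spans of the hosts, of which 8 had a row, the eighth being Gm25129 within Snhg11. Those with a row were 62 to 205 bases long with a median of 131.5, and 7 of 8 exceeded 100 bases. The 20 without a row were 56 to 133 bases long with a median of 72, and 1 of 20 exceeded 100. Rows were found by symbol alone, and most of these 20 carry LOC symbols, such as LOC115487643. Whether they are listed under other names was not tested, so the difference in length is not read as a reason for a missing row. The short C/D box snoRNAs of Gas5, Snhg1 and Snhg5 were among those without a row under these symbols. For Gas5, Snhg5 and Snhg6 no comparison with a hosted snoRNA was therefore made.

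In the inputs, the read counts of 3 hosts were set beside those of each snoRNA with a row. For the most read transcript of each host, the closest snoRNA, picked after the values were seen, had nearly its count. Other snoRNAs of Snhg3 and Snhg12 were further from the count of that transcript. Snora73a, the U17 RNA of Snhg3, had 28 reads in the mutant IP, 7 in the mock IP, 1951 in the mutant input and 1453 in the mock input. The count of Snhg3 ENSMUST00000141090.7 was 0.962 times that of Snora73a in the mutant input (0.902 to 1.03) and 0.884 times in the mock input (0.819 to 0.953). Snora73b had 42, 24, 2191 and 1763 reads in the same order, and Snhg3 lay below it beyond counting error in both inputs, at 0.856 times (0.805 to 0.911) in the mutant and 0.728 times (0.677 to 0.783) in the mock. Snora24 had 0 reads in both IPs, 234 in the mutant input and 240 in the mock input in its RefSeq row, and Snhg8 NR_028574 had 1.03 times (0.853 to 1.23) and 1.01 times (0.844 to 1.22) those input counts. In the mock input Snhg3 lay below Snora73a beyond counting error, while Snhg8 and Snora24 did not differ beyond it in either input.

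Snora44, an H/ACA box RNA of Snhg12, had 3 reads in the mutant IP, 1 in the mock IP, 759 in the mutant input and 771 in the mock input in its Ensembl row. The count of Snhg12 ENSMUST00000128131.1 was 0.908 times that in the mutant input (0.818 to 1.01) and 1.02 times in the mock input (0.918 to 1.12). The same transcript had 6.82 times the reads of Snora61 in the mutant input (5.53 to 8.49) and 5.51 times in the mock input (4.61 to 6.64). Beside the 2 Ensembl rows of Snora16a it had 4.01 and 4.39 times their reads in the mutant input, and 6.58 and 6.47 times in the mock input. The RefSeq row of Snora44, in the mRNA table, where Snhg12 had 2 reads in the mutant input and 0 in the mock input, had 1435 reads in the mutant input and 1538 in the mock input. The sum of the Ensembl rows of host and snoRNA was 1448 and 1554, close to those counts. Likewise the Ensembl rows of Snora24 and Snhg8 ENSMUST00000198509.1 summed to 236 reads in the mutant input and 254 in the mock input, beside 234 and 240 for the RefSeq row of Snora24. How a read that lies in both a host transcript and a snoRNA was assigned is stated in no source used here, and exon structures were not used here, so the part of shared reads in these counts was not tested.

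The remaining H/ACA box rows were also input RNAs. Snora16a had 8 reads in the mutant IP, 0 in the mock IP, 327 in the mutant input and 241 in the mock input in its RefSeq row, and Snora61 had 0, 0, 71 and 94. Gm25129, within the Snhg11 span, had 4, 1, 14 and 32 reads in the same order, a profile with most reads in the mock input, whereas Snhg11 had most in the mutant IP. Of the 9 snoRNA rows in the noncoding table, 7 were at least 4-fold below input in the mutant, with a median log2 ratio of -5.66, and all 9 in the mock, with a median of -5.74. Over all noncoding transcripts 9.18% were at least 4-fold below input in the mutant and 9.67% in the mock. All snoRNA rows but those of Snord22 and Gm25129 had at least 100 reads over both inputs. Of the 930 noncoding transcripts with that many, 23.4% were at least 4-fold below input in both conditions.

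Snord22, the C/D box RNA of Snhg1, was above its input in the mutant and below it in the mock. Its RefSeq row NR_004445 had 90 reads in the mutant IP, 6 in the mock IP, 37 in the mutant input and 55 in the mock input, and its Ensembl row had 25, 1, 11 and 18. The ratio of IP to input for the RefSeq row was 1.62 in the mutant (1.09 to 2.45) and 0.109 in the mock (0.0384 to 0.253). On the log2(value + 1) scale the mutant value was 0.67, below the median of 2.44 over all measured transcripts of the mRNA table. For the Ensembl row the ratio was 1.52 in the mutant (0.719 to 3.41), an interval that included 1, and 0.0556 in the mock (0.00133 to 0.352). These ratios of IP to input were not recomputed under other scalings. Snhg1 ENSMUST00000206383.1 had 1.28 times the reads of the Ensembl row in the mutant IP (0.735 to 2.25), 0.909 times in the mutant input (0.346 to 2.36) and 0.889 times in the mock input (0.424 to 1.85). In the mock IP both were close to 0, with 2 reads and 1 read.

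**Figure D3:**
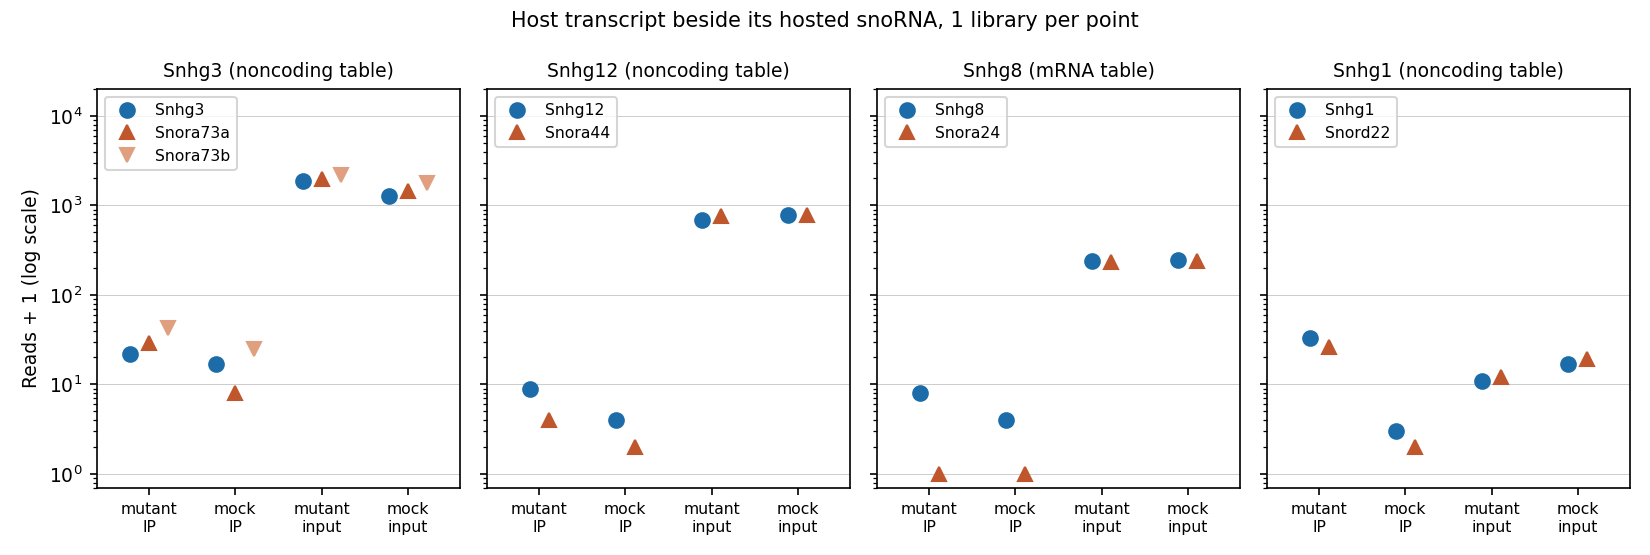
Reads + 1 (y axis, log scale) in the 4 libraries (x axis) for 1 host transcript and hosted snoRNA rows, picked after the values were seen, in 4 panels: Snhg3 ENSMUST00000141090.7 with Snora73a and Snora73b, Snhg12 ENSMUST00000128131.1 with Snora44, Snhg8 NR_028574 with Snora24, and Snhg1 ENSMUST00000206383.1 with Snord22. Host and snoRNA have 42 reads or fewer in the IPs in each panel, with Snhg1 and Snord22 the one pair whose mutant IP (32 and 25 reads) exceeds both inputs.

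IP was then compared with input over all measured host transcripts, to see what the gel recovered. Inputs were RiboMinus-selected and the IPs were not described as such, so the ratio also compares RNA prepared in 2 ways. In the mutant, 24 of the 55 noncoding transcripts were measured. Of these 1 was higher and 5 were lower than input, around a median log2 ratio of 1.02. The higher one was Snhg12 ENSMUST00000144705.7. Over all 4151 measured noncoding transcripts 26.2% were higher and 9.18% lower, with a median of 1.08. The 5 lower transcripts were the 5 input-rich ones, whose choice by input reads favours a low ratio. All 5 were lower in both conditions, beside 23.4% of the 930 noncoding transcripts with at least 100 reads over both inputs, and in the mRNA table Snhg8 but not Snhg11 was, beside 13.4% of 469. The 19 measured input-poor transcripts had a median of 1.08. In the mock, 2 of 19 measured transcripts were higher and 6 lower, against 23.9% and 9.67% of all 3766, with input-poor transcripts at a median of 0.69 and all transcripts at 1.03. Snhg1 ENSMUST00000206383.1 was the lower transcript outside the input-rich class. The 2 higher ones were Snhg12 ENSMUST00000144705.7 and Gas5 ENSMUST00000161229.7, at 16 reads in the mock IP against 1 in the mock input (ratio 16, 2.49 to 671).

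Of 6 hosts measured in the mRNA table, 3 were higher than input in the mutant and 1 lower, with a median of 1.76, beside 61.1% higher and 2.32% lower over all mRNA-table transcripts and a median of 2.44. The higher ones were Snhg3, Snhg5 and Snhg12 and the lower one was Snhg8. In the mock 3 of 5 were higher, Snhg1, Snhg11 and Snhg12, and 1 lower, Snhg8, beside 60.6% and 1.92%. Protein-coding snoRNA hosts, such as ribosomal protein genes and Eef2, were measured for 31 of 32 genes. In the mutant 26 of them were higher than input and 0 lower, with a median of 2.77, and in the mock 23 and 0 with 2.57. For 8 of 14 other noncoding hosts with a row, 1 was higher and 5 lower in the mutant (median -3.58), and 0 and 5 in the mock (-4.72), taking 1 transcript per gene. For the member hosts taken in the same way, 0 of 8 were higher and 3 lower than input in the mutant, beside 25.7% and 10.3% of noncoding genes. In the mock 2 of 6 were higher and 3 lower, beside 23.5% and 10.7%. Their medians were -0.37 for the mutant and -2.63 for the mock, but 1.76 and 2.06 with the mRNA table taken first, and 1.08 and 1.47 with input-poor transcripts only, a choice made after the values were seen. The sign of the set's median thus depended on which transcript stood for a host.

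The mutant IP and the mock IP were compared to ask which host transcripts depend on the tagged protein. Most host transcripts differed less than 4-fold: of 28 measured noncoding transcripts, 1 was higher and 1 lower, around a median log2 ratio of 0.59. Over all 4339 measured noncoding transcripts 12.4% were higher and 5.37% lower, with a median of 0.46, so the members' counts were near or below the background. Of 7 hosts measured in the mRNA table, 2 were higher and 1 lower (median 0.71), beside 10.1% and 5.74% of all 14273 (median 0.38). With equal totals the medians over all transcripts moved to 0.01 in the noncoding and 0.20 in the mRNA table, and the share of higher among called noncoding transcripts moved to 54.2%, against 69.7% as deposited.

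Snhg1 ENSMUST00000206383.1 was the noncoding transcript that was higher. Its ratio of mutant IP to mock IP was 14.8 (3.78 to 128), a log2 difference of 2.84. The ratio of the other 2 well-read Snhg1 transcripts was 1.56 (0.926 to 2.66) for ENSMUST00000206519.1 and 1.45 (0.836 to 2.56) for ENSMUST00000205539.1, and over all 9 Ensembl transcripts of Snhg1 it was 1.66 (1.21 to 2.30). The RefSeq row NR_002896 went the opposite way, at least 5.76-fold lower in the mutant IP. Snord22 was higher together with the first transcript, at 13.9-fold (6.14 to 38.8) in its RefSeq row and 23.1-fold (3.79 to 950) in its Ensembl row.

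Snhg3 and Snhg5 were higher in their RefSeq rows. Snhg3 NR_003270 was at least 6.17-fold higher, with 20 reads in the mutant IP against 0 in the mock IP, and Snhg5 NR_040721 at least 4.01-fold higher with 13 against 0. The abundant Snhg3 transcript ENSMUST00000141090.7 had a ratio of 1.22 (0.604 to 2.49), and the U17 RNAs had 3.7 (1.58 to 10.04) for Snora73a and 1.62 (0.959 to 2.80) for Snora73b. Gas5 had fewer reads in the mutant IP in both of its best-read rows. ENSMUST00000161229.7 was lower, with a ratio of 0.0579 (0.00138 to 0.373) and a log2 difference of -2.43, and NR_002840 had 0.218 (0.0533 to 0.668), a log2 difference of -1.65 that did not pass 4-fold. Over all 22 Ensembl transcripts of Gas5 the ratio was 1.06 (0.653 to 1.73).

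The 5 host calls rested on 13 to 32 reads in the deeper IP. Among noncoding transcripts with 10 to 50 reads in the deeper IP, 20% were higher and 9.09% lower, and of 8 host transcripts in that range 1 was higher and 1 lower. Among mRNA-table transcripts in that range 16.9% were higher and 8.9% lower, and of 5 hosts 2 were higher and 1 lower. With a pseudocount of 5 all 5 host calls in both tables fell short of 4-fold, at log2 differences of 1.54 for Snhg1 ENSMUST00000206383.1, 1.31 for Snhg3 NR_003270, 0.97 for Snhg5 NR_040721, -1.19 for Snhg1 NR_002896 and -1.09 for Gas5 ENSMUST00000161229.7. With equal totals Snhg3 NR_003270 (1.98), Snhg5 NR_040721 (1.54) and Snhg1 NR_002896 (-1.95) fell short as well, and no direction changed. Snord22 NR_004445, with 90 reads in the mutant IP, stayed past 4-fold with a pseudocount of 5, at 2.37.

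Snhg11, with the most IP reads, had a ratio of 1.78 (1.49 to 2.14), a log2 difference of 0.83 beside the median of 0.38 over the mRNA table. Snhg12 NR_029468 had 1.77 (0.848 to 3.91), ENSMUST00000144705.7 had 0.838 (0.426 to 1.64) and ENSMUST00000128131.1 had 2.47 (0.593 to 14.5). Snhg8 NR_028574 had 2.16 (0.493 to 12.9), on 7 and 3 reads. For these 4 rows a difference between the IPs was not detectable at this depth. Snhg8 ENSMUST00000198509.1, with 6 reads against 0, was at least 1.85-fold higher on the deposited scale and did not pass 4-fold on the log2 scale. Snhg6, with 3 reads, gave no usable ratio.

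**Figure D4:**
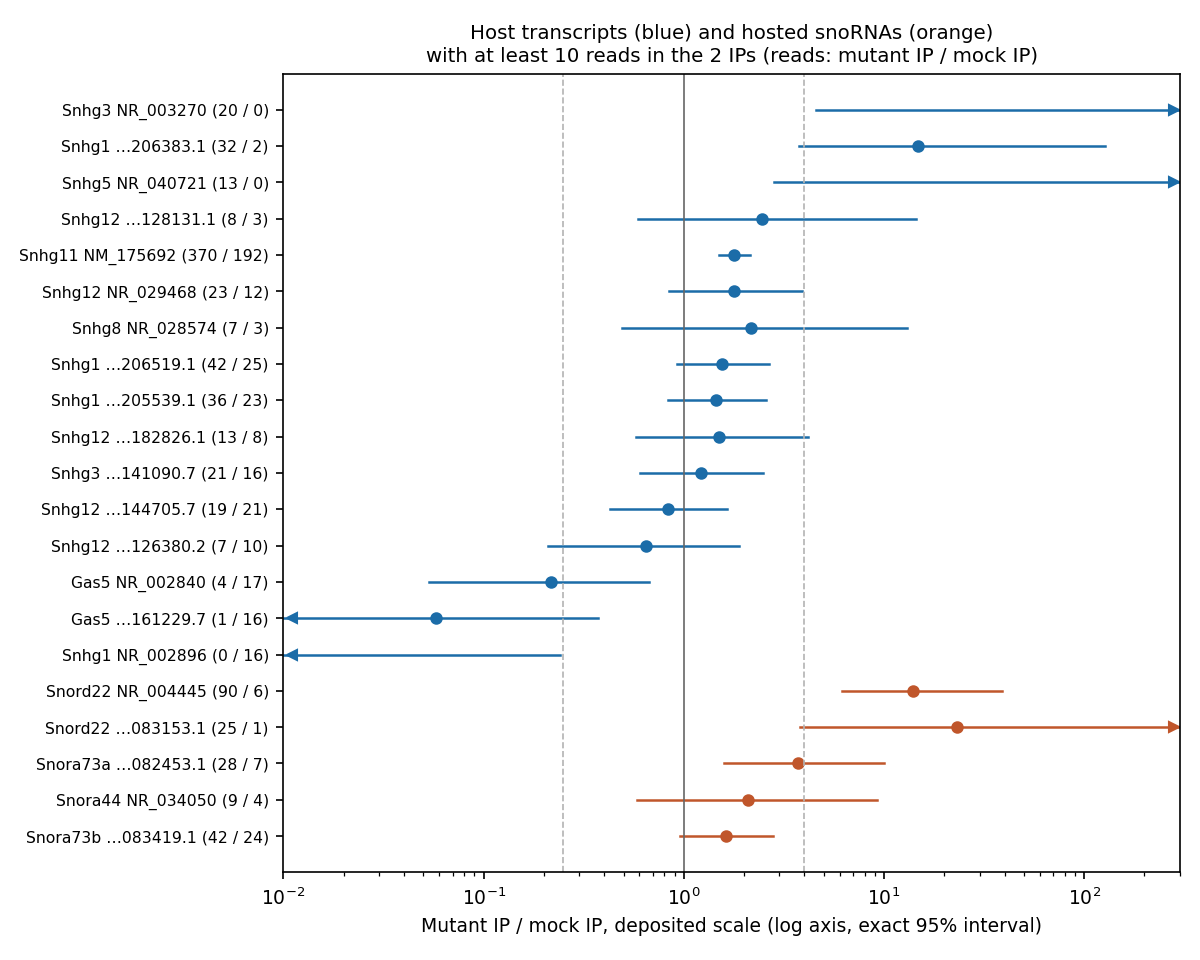
Ratio of mutant IP to mock IP in deposited values (x axis, log scale) with exact 95% intervals for each host transcript (blue) and hosted snoRNA (orange) with at least 10 reads over both IPs, and reads of mutant IP and mock IP in brackets. Points mark the ratio, lines without a point have 0 reads in 1 library, arrows run past the axis and dashed lines mark 4-fold; Snhg1 ENSMUST00000206383.1 and Snord22 lie at 14.8 and 13.9, Snhg1 NR_002896 and Gas5 lie below 1, and Snhg11 has the narrowest interval at 1.78.

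Between the inputs, host transcripts were mostly within 2-fold. Of 14 measured noncoding transcripts 3 were higher and 2 lower in the mutant input (median log2 ratio 0.44), beside 29.3% and 13.6% of all 2916 (median 0.48). Snhg3 ENSMUST00000141090.7 had a ratio of 2.03 (1.89 to 2.18). Its snoRNAs were also raised, at 1.86 (1.74 to 1.997) for Snora73a and 1.73 (1.62 to 1.84) for Snora73b. The interval of Snora73b lay below that of Snhg3. The other higher ones, of Snhg8 and Snhg12, and the lower ones, both of Gas5, had at most 6 reads in either input. Over its 22 Ensembl transcripts Gas5 summed to 2 reads in the mutant input and 22 in the mock input. Its RefSeq row NR_002840 had 2 and 7. Snhg12 ENSMUST00000128131.1 had 1.22 (1.10 to 1.36) and Snhg8 ENSMUST00000198509.1 had 1.38 (1.06 to 1.78). Of 4 hosts in the mRNA table, 2 were higher and 0 lower (37% and 21.8% of all, median 0.51), Snhg11 with a ratio of 3.03 (2.10 to 4.43) and Snhg12 NR_029468 with 2 reads against 0. With equal totals the median over all transcripts moved to -0.02 in the noncoding table and -0.06 in the mRNA table. Under the 3 other scalings tried, the log2 difference was 0.51 to 0.58 for Snhg3, below 2-fold, and 0.997 to 1.04 for Snhg11, at the threshold. Taking 1 transcript per gene, 2 of 6 hosts were higher and 0 lower, beside 29% and 13.6% of noncoding genes. Gas5 was there represented by ENSMUST00000161229.7, with 2 reads in the mutant input and 1 in the mock input, and not by its sum.

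The specific enrichment divides IP over input in the mutant by IP over input in the mock. Of 29 measured noncoding transcripts 3 were at least 4-fold higher and 2 lower (median log2 value 0.56), beside 12.6% and 7.91% of all 4866 (median 0.06). Snhg1 ENSMUST00000206383.1 reached 3.01, since the ratio of IP to input was 2.13 in the mutant (1.02 to 4.87) but 0.125 in the mock (0.0139 to 0.532). Snord22 reached 3.43 in its RefSeq row and 3.08 in its Ensembl row. The other calls, for Gas5 and Snhg8 transcripts, rested on at most 16 reads in any library and went both ways. Gas5 ENSMUST00000159119.7 (3.08) and ENSMUST00000160429.7 (2.04) were higher. Gas5 ENSMUST00000161229.7 (-3.03) and Snhg8 ENSMUST00000199645.1 (-2.19) were lower. Of 7 hosts in the mRNA table, 2 were higher and 1 lower (13.8% and 10.6% of all), the same Snhg3, Snhg5 and Snhg1 rows as between the IPs, with 0 reads in both inputs. Of the 7 input-rich transcripts 0 passed 4-fold, with values of -0.77 for Snhg3, 0.56 for Snhg12 ENSMUST00000128131.1, 0.15 for ENSMUST00000182826.1 and -0.59 for ENSMUST00000126380.2 of the same gene, 1.23 for Snhg8 ENSMUST00000198509.1, 0.25 for Snhg8 NR_028574 and -0.72 for Snhg11, beside 1.2 for Dis3l2. Taking 1 transcript per gene, 0 of 8 hosts were higher and 1, Gas5, was lower, beside 13.3% and 8.69% of noncoding genes. That call rested on ENSMUST00000161229.7 alone. Over all its Ensembl transcripts Gas5 had 39 reads in the mutant IP, 34 in the mock IP, 2 in the mutant input and 22 in the mock input. Those sums go in the opposite direction, so no direction is read for Gas5.

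Noncoding hosts outside the 8 were split in the same way, by input reads. Of 71 transcripts of 8 such hosts, 17 were input-rich, 16 of them in the noncoding table. Of these 16, 11 lay at least 4-fold below input in both conditions, beside the 23.4% of input-rich noncoding transcripts given above, and the other one, Dancr NR_015531, did so too. Snhg7 ENSMUST00000181621.2 had 6 reads in the mutant IP, 1 in the mock IP, 3951 in the mutant input and 5064 in the mock input, while its RefSeq row NR_024068 had 43, 32, 0 and 0 in that order. Dancr NR_015531 had 9, 0, 1305 and 960 reads, beside 9, 0, 1305 and 956 for Snora26, the H/ACA box snoRNA it carries. Snhg10 NR_003145, with 18 reads in the mutant IP but 0 in the other 3 libraries, was at least 5.56-fold higher in the mutant IP than in the mock IP.

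Other lists were compared between the IPs, where 10.1% of all mRNA-table transcripts were higher and 5.74% lower. Of 15 measured genes for snoRNP proteins, which bind and stabilise snoRNAs, 0 were higher and 0 lower (median log2 ratio 0.19). Of 13 measured genes for nonsense-mediated decay factors, 0 were higher and 0 lower (-0.05). With so few genes in a list, nothing is read from counts of 0 beside those shares. Of 31 protein-coding hosts 1 was higher and 0 lower (0.36), of 8 other noncoding hosts 1 and 0 (0.75), and of 10 nuclear lncRNAs not known as hosts 0 and 0 (0.23). Taking 1 transcript per gene, 0 of the 8 member hosts were higher and 1, Gas5, was lower (0.84), beside 13.5% and 5.99% of noncoding genes. The Gas5 call was that of ENSMUST00000161229.7, and over all its Ensembl transcripts the ratio was 1.06. The features whose profile over the 4 libraries was closest to the median profile of the members were Gm42463 in the noncoding table and the noncoding RNA A330069E16Rik in the mRNA table, both at a Euclidean distance of 0.31 on the log2 scale among 1238 and 5001 features. The next were Gm43329, Gm17491, Gm26538 and Gm26609, and Dclre1c, Zfp9, Zfp113 and Cflar. Gm42463 had 211 reads in the mutant IP, 200 in the mock IP, 197 in the mutant input and 188 in the mock input, a level profile. A median profile need not be that of any host, and the distance of single hosts to it was not computed.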

How the data were processed

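Bowtie and the build mm9 are named in the submitters' processing notes. No source used here states the aligner's version, how transcripts were counted, whether strand was used or how multiply aligned reads were handled. The authors deposited a signal per transcript and library in 2 tables. Every deposited signal was a whole number of reads, within 0.02 reads, divided by 1.8 (mutant input), 2.5 (mock input), 2.7 (mutant IP) or 2.5 (mock IP), and 100% of values fitted; no source used here says what the divisors are. The design had foreseen normalised values.

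Ratios of deposited signal were taken with a pseudocount of 1 and a minimum value of 1. Intervals were exact conditional binomial 95% intervals on recovered reads. Against 0 reads, a fold is a bound on a floor of 3 reads per library. Neither p-values nor set tests were computed, since each of the 4 groups holds 1 library. The interval code was tested on simulated data.

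The 8 hosts, the lists and the snoRNA pairs were chosen with earlier results of these data known. The named genes were all rows of the hosts, their snoRNAs with a row, other noncoding hosts, Dis3l2 and the 5 most alike features per table. RefSeq tables (GRCm38.p6) supplied promoters, names and spans without strand. Python 3.11.15, pandas 2.3.3, numpy 2.4.6 and scipy 1.17.1 were used. Scaling, pseudocount, minimum, threshold, table order and transcript choice were varied.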

Additional observations from a re-analysis of the deposited data

Results flagged for a closer look

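Snhg1 ENSMUST00000206383.1 stood out because its IP lay above input in the mutant and below input in the mock, each with an interval that excluded 1. It had 32 reads in the mutant IP, 2 in the mock IP, 10 in the mutant input and 16 in the mock input, and its log2 specific enrichment was 3.01. The difference between the conditions was not tested, since each group is 1 library.

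Snord22 NR_004445 stood out in the same way on the deposited scale, with 90 reads in the mutant IP, 6 in the mock IP, 37 in the mutant input and 55 in the mock input. For its Ensembl row the interval in the mutant included 1. Its log2 specific enrichment was 3.43, and the difference was not tested. Snord22 lies within Snhg1, and whether reads were counted for both was not tested.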

How the results depend on the processing

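Medians over the 8 hosts, 1 transcript each, changed sign under some settings, while the values recomputed for named transcripts did not. The ratios of IP to input of Snhg11 and Snord22 were not among the values recomputed. The cause was not tested. Of the values recomputed for the set, 70 stayed, 24 moved and 11 changed sign. A count stayed if it changed by at most 1.5-fold. A median stayed if it lay within the median bounds of the hosts' intervals. These were wide, at -7.69 to 2.10 for the specific enrichment and -0.74 to 2.61 between the IPs, so staying does not mean a like value. A named transcript stayed if its call held and its value lay within its own interval. For named transcripts 43 stayed, 27 moved and 0 changed sign, and the log2 difference between the IPs ran from 1.54 to 3.25 for Snhg1 ENSMUST00000206383.1 and from 2.37 to 3.54 for Snord22. For mutant IP over mock IP the count past 4-fold was 1, against 2 with a pseudocount of 0.5, 0 with a pseudocount of 5, 3 with the mRNA table first and 4 at 2-fold. For mutant IP over mutant input the median of -0.37 became -4.42 with a minimum of 5, 0.76 with transcripts summed, 1.76 with the mRNA table first and 1.08 with input-poor transcripts, an alternative chosen after seeing the data. Its count of 3 became 5 summed, 1 with input-poor transcripts and 6 at 2-fold. For mock IP over mock input the median of -2.63 became -1.59 with a pseudocount of 5, 0 with no minimum, -1.75 summed, 2.06 with the mRNA table first and 1.47 with input-poor transcripts. Its count of 5 became 3 with a pseudocount of 5 and 2 with input-poor transcripts. Between the inputs the median of 0.79 became -0.0033 with equal totals, 0.0303 centred and -0.0277 with equal totals without the top feature. Its count of 2 became 1, 1 and 0 in that order, 1 with input-poor transcripts and 4 at 1.5-fold, and the share of higher among called transcripts moved to 50.6% with equal totals, against 68.3% as deposited, in the noncoding table and to 49.4%, against 63.0%, in the mRNA table. For the specific enrichment the median of 0.03 became -0.14 with a pseudocount of 5, -0.61 with a minimum of 5, -0.36 with the mRNA table first and -0.23 with input-poor transcripts. Its count of 1 became 0 with a pseudocount of 5, 2 summed, 3 with the mRNA table first, 2 with input-poor transcripts and 4 at 2-fold. No paired analysis was possible because each group holds 1 library, and no library could be left out for the same reason. Levels per length were not run, as spliced lengths were not used here.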
